A study of Rattus norvegicus with 18 samples.

Results

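Genes that mark astrocytes and their response to injury were followed through RNA sequencing of rat motor cortex after spinal cord injury. The set is a list of 9 gene symbols, Gfap, Vim, Aqp4, Aldh1l1, S100b, Slc1a2, Slc1a3, Gja1 and Serpina3n, chosen by name with earlier results of these data known. All 9 were among the 31038 genes of the day 30 table, where 8 had counts, and 8 were among the 12560 genes of the day 7 table. There were 18 libraries in 6 groups of 3. At day 7 these were male inj and male Sham, and at day 30 male In, male S, female In and female S. The labels give neither strain, age nor the level of the injury, and they do not spell out In and S, so these names are kept as given. The series describes the material as primary neurons enriched from motor cortex, in every group alike. No source used here says whether replicates are separate animals or whether Sham 1 and Sham 1-RNA are 1 sample, so p-values cover no more than the spread from library to library.

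Astrocytes clear glutamate from synapses, buffer potassium and water through endfeet on blood vessels, and are coupled to one another by gap junctions. After damage to the nervous system they become reactive, a state classically recognised by more of the intermediate filament proteins GFAP and vimentin. Gfap and Vim encode these filament proteins, Slc1a2 and Slc1a3 the glutamate transporters GLT-1 and GLAST, Aqp4 the endfoot water channel aquaporin-4 and Gja1 the gap junction protein connexin 43. Aldh1l1 encodes a folate enzyme used as a general astrocyte marker, S100b a calcium-binding protein, and Serpina3n a protease inhibitor that marks reactive astrocytes in mouse. Vim is also made by endothelial cells, pericytes and microglia, and S100b also by oligodendrocytes.

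Gfap and Vim moved in opposite directions at day 7, and the stretches of genome before their starts are shown for that reason. Each line gives the 250 bases before the RefSeq gene start in the rat build GRCr8, 5′ to 3′ on the gene's strand. The build differs from the rn6 build behind the counts, so only names and sequences were taken from it. The capitals in the Vim line mark TATAAA, a core promoter motif looked for after the sequences had been seen.
Gfap, chr10:88361662-88361911, minus strand: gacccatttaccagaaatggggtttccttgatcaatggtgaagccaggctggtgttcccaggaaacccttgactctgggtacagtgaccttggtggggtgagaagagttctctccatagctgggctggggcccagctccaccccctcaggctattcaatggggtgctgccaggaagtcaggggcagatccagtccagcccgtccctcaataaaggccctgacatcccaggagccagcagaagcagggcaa
Vim, chr17:81577011-81577260, plus strand: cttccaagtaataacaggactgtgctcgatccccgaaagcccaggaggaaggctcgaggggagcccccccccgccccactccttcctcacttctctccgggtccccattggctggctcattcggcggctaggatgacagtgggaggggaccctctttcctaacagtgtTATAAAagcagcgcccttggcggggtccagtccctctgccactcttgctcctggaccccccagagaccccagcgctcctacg
TATAAA, searched on both strands, occurred in 12.93% of 33469 promoter windows of this length and began 82 bases before the Vim start. All 9 genes had promoter windows in RefSeq, 13 in all because some genes have several starts. The STAT motif TTCNNNGAA, which reads the same on both strands, was found before Serpina3n, as TTCCCAGAA beginning 123 bases before its start, and in 7.67% of all windows. The AP-1 motif TGANTCA was found on either strand before Gja1 alone among the members, as TGAGTCA beginning 58 bases before its start, and in 6.34% of all windows. The palindromic nuclear factor I motif, searched on both strands, was in 1.06% of all windows and before none of the members. These matches describe letters in a window and not bound sites.

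The inj libraries held 14650528 to 17013273 counts and the Sham libraries 2683105 to 3014083. The day 30 libraries held 14532252 to 27849794. Levels are given as CPM, a gene's share of its library's counts on a fixed scale, adjusted for library composition by the TMM method. A floor of 3 counts, covering counting error only, corresponds to 1.09 to 1.23 CPM in Sham and 0.114 to 0.288 CPM elsewhere. RNA of many cell types was present: Mbp, a myelin gene, took 4.94 to 14.5% of day 7 counts and 0.551 to 3.84% of day 30 counts, lowest in male In 1. Genes encoded by the mitochondrial genome took 27.1 to 37.5% of counts in the female day 30 libraries and 53.7 to 60.3% in the male ones, and none are listed in the day 7 table.

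The day 7 comparison asks how astrocyte genes differed between male inj and Sham libraries of the neuron-enriched material. The part of the enrichment in these differences was not tested. Gfap was lower and Vim higher in inj, S100b and Aldh1l1 were lower, Slc1a3 and Gja1 were higher, and Slc1a2 and Aqp4 did not pass. Of 8 tested members, 3 passed upwards and 3 downwards in the quasi-likelihood test of edgeR, at an adjusted p of 0.05. The comparison called 34.7% of 11786 genes (19.3% rose and 15.4% fell), and the members' median log2 fold change of 0.08 lay near the median of 0 over all genes. The 6 of 8 stand beside that share, but the members were chosen with earlier results of these data known. Of these calls only those of Gfap and Vim held in all alternatives. Without inj 2 the calls of Slc1a3, Gja1, Aldh1l1 and S100b all ended. Groups did not overlap for 5 of the 8, against 48.4% of all genes tested.

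Among the filament genes, Gfap stood at 2810, 2230 and 1820 CPM in Sham 1, Sham 3 and Sham 1-RNA and at 603, 454 and 686 CPM in inj 2, 3 and 4. Every Sham library was above every inj library, with means of 2290 ± 495 and 581 ± 117 CPM (SD, n = 3). Gfap fell by 1.98 ± 0.23 on the log2 scale (95% interval -2.49 to -1.46, edgeR adjusted p = 0.000172), which is 3.94-fold lower. Only 1.8% of genes tested had a log2 fold change as low or lower. In a bulk library the level of a single gene does not tell fewer cells of a type from less RNA per cell, and neither was tested. S100b and Aldh1l1, described below, also passed downwards, while Aqp4, Slc1a2, Slc1a3 and Gja1 did not.

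Vim stood at 154, 174 and 147 CPM in Sham 1, Sham 3 and Sham 1-RNA and at 355, 332 and 430 CPM in inj 2, 3 and 4. Every inj library was above every Sham library, with means of 373 ± 50.9 and 158 ± 13.8 CPM (SD, n = 3). Vim rose by 1.24 ± 0.15 on the log2 scale (95% interval 0.89 to 1.58, edgeR adjusted p = 0.000261), or 2.36-fold. The 2 filament genes kept direction and call in all 14 alternatives run for them, with log2 fold changes of -2.13 to -1.68 for Gfap and 1.11 to 1.52 for Vim.

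The change of Vim relative to Gfap can be read within a library without any scaling, although a ratio does not give the direction of either gene. The log2 ratio of Vim to Gfap counts was -4.19, -3.68 and -3.63 in Sham 1, Sham 3 and Sham 1-RNA and -0.76, -0.45 and -0.67 in inj 2, 3 and 4. The groups were far apart relative to their spread, with means of -3.83 ± 0.31 and -0.63 ± 0.16 (SD, n = 3). Gfap also fell relative to the other astrocyte genes. Its log2 ratio to Aqp4 counts was 3.57 ± 0.47 in Sham and 1.43 ± 0.09 in inj, and its ratio to Aldh1l1 counts 6.63 ± 0.43 and 5.35 ± 0.04 (SD, n = 3). The ranges of these ratios did not overlap between Sham and inj. S100b to Gfap, a ratio added after the data were seen, was 0.48 ± 0.34 in Sham and 1.70 ± 0.14 in inj.

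**Figure D1:**
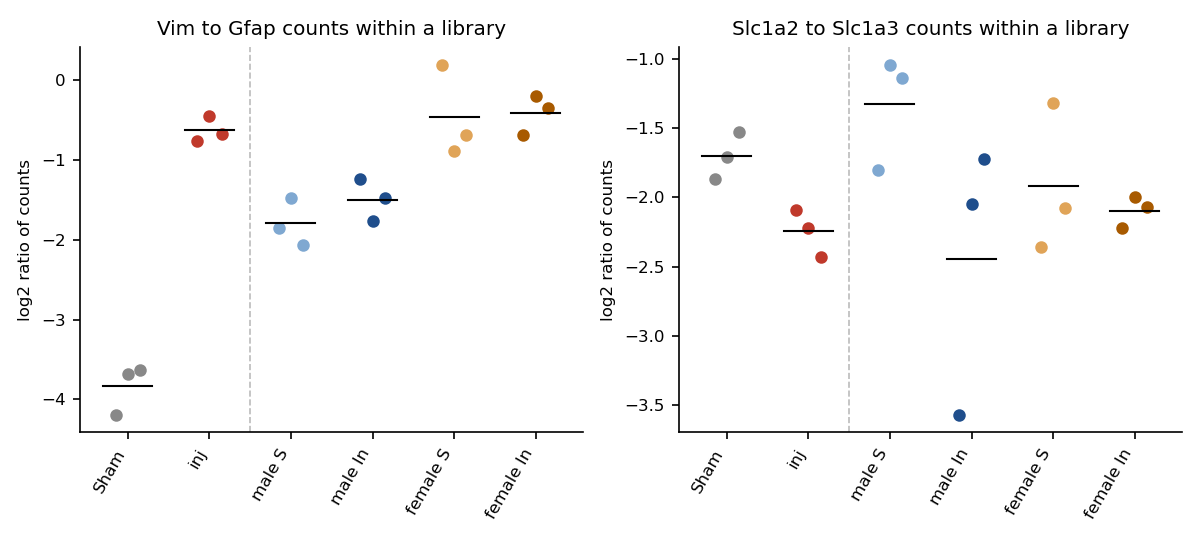
Log2 ratio of counts within each library for Vim to Gfap (left) and Slc1a2 to Slc1a3 (right) in the 6 groups. Points are libraries, horizontal lines are group means, and the dashed line separates the day 7 and day 30 tables. Vim to Gfap lies between -4.19 and -3.63 in the 3 Sham libraries and between -0.76 and -0.45 in the 3 inj libraries.

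The 2 glutamate transporters did not move alike. Slc1a3 stood at 205, 253 and 291 CPM in Sham 1, Sham 3 and Sham 1-RNA and at 422, 296 and 373 CPM in inj 2, 3 and 4. The groups did not overlap, but inj 3 lay just above the highest Sham library. Slc1a3 rose by 0.54 ± 0.18 on the log2 scale (95% interval 0.13 to 0.95, edgeR adjusted p = 0.045). The call ended with RLE size factors (adjusted p = 0.0571), with inj counts thinned to the Sham depth (0.0535) and without Sham 1 (0.145), Sham 3 (0.106), inj 2 (0.188) or inj 4 (0.101) in edgeR fits, within a range of 0.00518 to 0.188.

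Slc1a2 stood at 55.7, 77.3 and 101 CPM in Sham 1, Sham 3 and Sham 1-RNA and at 99, 63.6 and 69.1 CPM in inj 2, 3 and 4. The groups covered much the same range. Its log2 fold change was -0.02 ± 0.23 (95% interval -0.54 to 0.5, edgeR adjusted p = 0.967). The log2 ratio of Slc1a2 to Slc1a3 counts was -1.70 ± 0.17 in Sham and -2.25 ± 0.17 in inj (SD, n = 3), with no overlap.

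Of the endfoot and junction genes, Aqp4 stood at 182, 166 and 221 CPM in Sham 1, Sham 3 and Sham 1-RNA and at 240, 164 and 243 CPM in inj 2, 3 and 4. The lowest library of all 6 was inj 3, and the log2 fold change was 0.18 ± 0.19 (95% interval -0.23 to 0.6, edgeR adjusted p = 0.487). Gja1 stood at 115, 117 and 149 CPM in Sham and at 205, 135 and 259 CPM in inj, in the same library order. Again inj 3 was low, here below Sham 1-RNA, so the groups overlapped. Gja1 rose by 0.65 ± 0.23 on the log2 scale (95% interval 0.15 to 1.16, edgeR adjusted p = 0.049). This call ended with RLE size factors (adjusted p = 0.0596), thinned inj counts (0.0519), the 2 Sham 1 libraries summed (0.0554) and without Sham 1 (0.141), Sham 3 (0.142), inj 2 (0.119) or inj 4 (0.17) in edgeR fits, within a range of 0.00947 to 0.17.

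S100b was even across Sham, at 3130, 3100 and 3220 CPM in Sham 1, Sham 3 and Sham 1-RNA, and stood at 1920, 1640 and 2040 CPM in inj 2, 3 and 4. Every inj library was below every Sham library. S100b fell by 0.75 ± 0.18 on the log2 scale (95% interval -1.15 to -0.35, edgeR adjusted p = 0.00913). Its call ended with library totals as scale (-0.48, adjusted p = 0.0548) and without inj 2 (0.0558) or inj 3 (0.0532) in edgeR fits, within a range of 1.1e-07 to 0.0558.

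Aldh1l1 stood at 27, 16.9 and 25.1 CPM in Sham 1, Sham 3 and Sham 1-RNA and at 15.3, 10.9 and 16.6 CPM in inj 2, 3 and 4. Sham 3 lay just above inj 4, so the groups were close but did not overlap. Aldh1l1 fell by 0.69 ± 0.23 on the log2 scale (95% interval -1.21 to -0.17, edgeR adjusted p = 0.0422). The call ended with limma-voom (adjusted p = 0.0596), with library totals as scale (-0.42, 0.226), with the Sham 1 libraries summed (0.0657) and without Sham 1 (0.166), Sham 1-RNA (0.0791), inj 2 (0.0781) or inj 3 (0.117) in edgeR fits, within a range of 0.0238 to 0.226. Scaled by library totals, all genes had a median of 0.28 on the log2 scale, with 3365 that rose and 957 that fell, against 2276 and 1814 with TMM. Relative to that shift the 6 called members kept their directions.

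**Figure D2:**
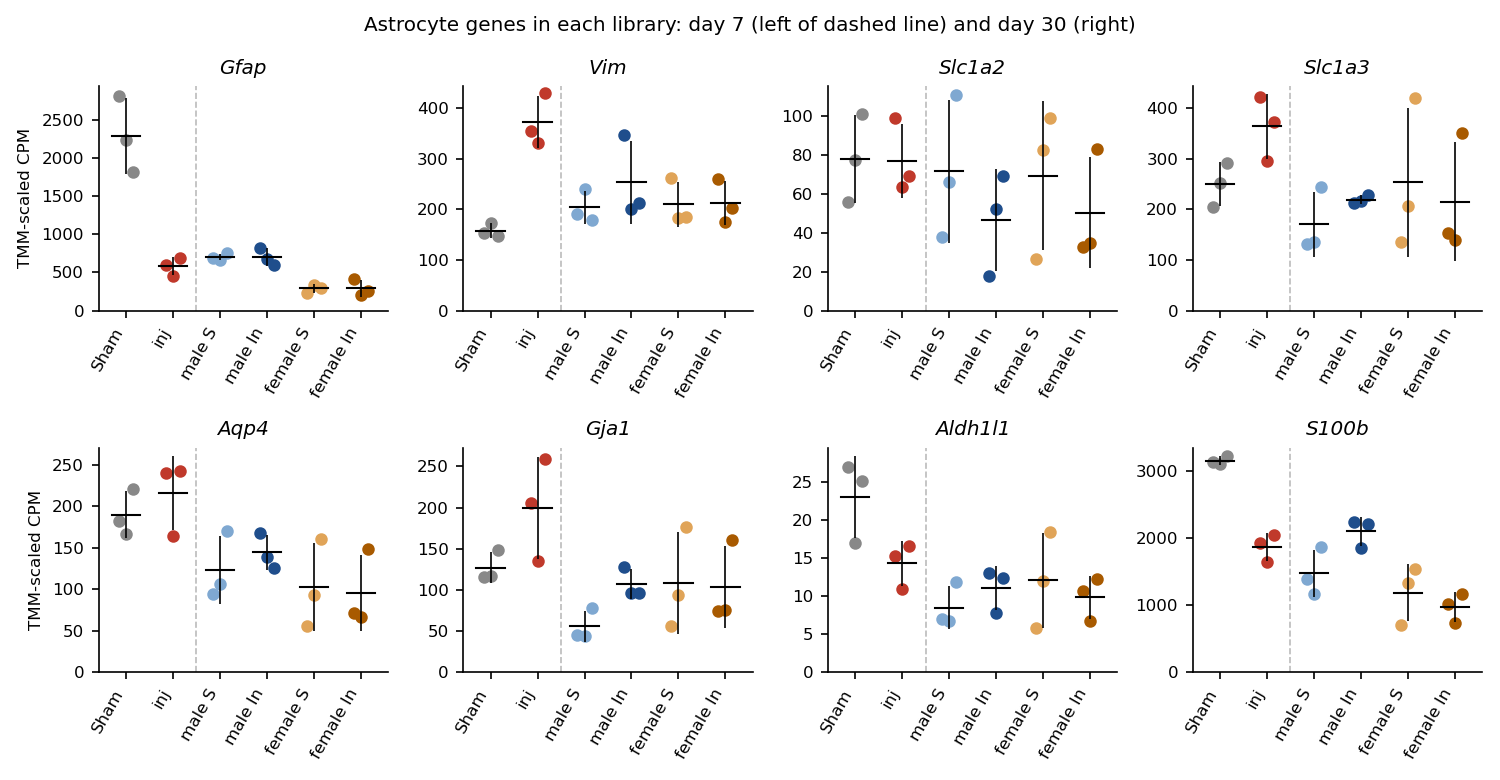
TMM-scaled CPM of 8 astrocyte genes in each of 18 libraries. Points are libraries, horizontal lines group means and vertical lines SD (n = 3). The dashed line separates the day 7 and day 30 tables, between which levels are not compared. Gfap lies at 1820 to 2810 CPM in Sham and 454 to 686 CPM in inj, and at day 30 the In and S libraries of each sex overlap for every gene except Gja1 in males.

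Other genes of the same roles were read from lists chosen with earlier results of these data known. Their counts are read against the 34.7% of genes called, and all genes had a median log2 fold change of 0. Among 19 tested astrocyte identity genes other than the members, 6 rose and 5 fell, with a median of 0.19. Mfge8, which encodes a secreted bridge protein for phagocytosis, rose by 1.59 ± 0.21 (edgeR adjusted p = 0.000348). Gpr37l1, an astrocyte receptor gene, rose by 0.74 ± 0.18 (edgeR adjusted p = 0.0114). The bicarbonate cotransporter gene Slc4a4 fell by 1.44 ± 0.23 (edgeR adjusted p = 0.000944), Ppp1r3c, a glycogen-targeting phosphatase subunit, fell by 1.12 ± 0.13 (0.000153), and Acsbg1, an acyl-CoA synthetase, fell by 0.60 ± 0.16 (0.0154). The list's split depended on single libraries, and its median was -0.05 without inj 4 and 0.33 without inj 3: 2 rose without inj 2, 3 without Sham 1 or inj 4, 2 fell without Sham 3 or inj 3, and 3 fell without inj 2, while 9 rose and 2 fell with library totals as scale.

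Among 14 genes of glutamate and GABA handling, 4 rose and 1 fell, with a median of 0.30. Slc38a3, a glutamine transporter gene, rose by 2.04 ± 0.18 (edgeR adjusted p = 4.02e-05) and Atp1b2, a sodium pump subunit of glia, by 0.81 ± 0.16 (0.00366). Glud1, glutamate dehydrogenase, fell by 0.70 ± 0.16 (edgeR adjusted p = 0.0089). Of 12 endfoot and ion balance genes 2 rose and 2 fell, with a median of 0.18. Agrn and Dag1, which encode agrin and dystroglycan of the basement membrane contact, rose by 1.95 ± 0.19 (edgeR adjusted p = 6.91e-05) and 1.34 ± 0.14 (0.000107). Sntb1, a syntrophin gene, fell by 0.86 ± 0.29 (edgeR adjusted p = 0.0416), a call that ended in 8 of 14 alternatives (adjusted p up to 0.164). Only 1 gene of the endfoot list fell without Sham 1, Sham 3, inj 3 or inj 4, and its median was 0.07, 0.05 and -0.03 without inj 2, 3 and 4.

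Connexins and pannexins other than Gja1 rose in 6 of 9 and fell in 0, with a median of 0.87. Gja4 rose by 3.65 ± 0.40 (edgeR adjusted p = 0.000113), Gjc1 by 3.18 ± 0.30 (5.98e-05) and Gja5 by 3.05 ± 0.62 (0.00398), all known as connexins of vessel walls. Gja5 had a mean of 0.393 CPM in Sham, under the floor, and 3.28 CPM in inj. Fewer connexins passed when a library was left out: 3 without Sham 1 or inj 4 and 4 without Sham 1-RNA, inj 2 or inj 3. Intermediate filament genes other than Gfap and Vim went both ways, with 3 of 12 higher, 3 lower and a median of 0.07. Des, the desmin gene of muscle and pericytes, rose by 2.45 ± 0.27 (edgeR adjusted p = 0.000112), and so did the cytolinker gene Plec (0.75 ± 0.15, 0.00406) and the lamin gene Lmna (0.78 ± 0.19, 0.00932). The neurofilament genes Nefm and Nefl fell by 1.36 ± 0.25 (edgeR adjusted p = 0.00216) and 0.95 ± 0.20 (0.0056), and Synm, which encodes synemin, a partner of GFAP and vimentin, fell by 0.71 ± 0.18 (0.0134).

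Genes reported elsewhere for reactive astrocytes were mostly higher. Of 9 pan-reactive genes tested, 4 rose and 1 fell, with a median of 1.69, while 0 fell when any single library was left out or with library totals as scale. They included S1pr3, a sphingosine phosphate receptor (2.56 ± 0.21, edgeR adjusted p = 2.94e-05), Osmr, the oncostatin M receptor (2.10 ± 0.46, 0.00633), and Hspb1, a small heat shock protein (1.69 ± 0.31, 0.00223). The Sham mean of Osmr, 1.01 CPM, was under the floor. Aspg, an asparaginase gene, fell by 2.73 ± 0.87 (edgeR adjusted p = 0.0346) from a mean of 2.04 CPM in Sham, close to the floor, but did not pass without Sham 1 (0.0767), Sham 3 (0.109) or Sham 1-RNA (0.0655) and was below the filter when an inj library was left out. Genes of the neuroinflammatory A1 signature rose in 8 of 9, with a median of 1.57. They included Ggta1, a galactosyltransferase (2.54 ± 0.35, edgeR adjusted p = 0.000461), C3, complement component 3 (2.23 ± 0.30, 0.000433), and Srgn, a proteoglycan core protein of blood and immune cells (2.10 ± 0.17, 2.52e-05). Genes of the A2 signature, described after ischaemia, rose in 3 of 6 tested, with a median of 1.46 that was 0.58 without Sham 1-RNA and 0.68 without Sham 1. Tm4sf1, also an endothelial gene, rose by 2.62 ± 0.26 (edgeR adjusted p = 7.7e-05), Slc10a6 by 2.24 ± 0.47 (0.0048) from a Sham mean under the floor (0.999 CPM), and Emp1, a membrane protein gene, by 2.01 ± 0.34 (0.00143).

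Signalling genes that act upstream of reactivity rose in 10 of 19 and fell in 2, with a median of 0.63. Il6st and Il6r, the interleukin-6 receptor genes, rose by 1.91 ± 0.15 (edgeR adjusted p = 2.49e-05) and 2.5 ± 0.20 (2.66e-05), and Tgfbr1, a receptor for transforming growth factor beta, by 2.63 ± 0.23 (3.8e-05). Nfia and Nfib, nuclear factor I genes needed for astrocyte development, fell by 1.27 ± 0.16 (edgeR adjusted p = 0.000261) and 0.71 ± 0.19 (0.0176). Of 7 other S100 genes, 0 rose and 2 fell, S100a13 by 0.84 ± 0.21 (edgeR adjusted p = 0.0107) and S100a1 by 0.66 ± 0.21 (0.033), and the list's median was -0.39. That median was 0.02 without Sham 1, -0.18 without Sham 3, -0.19 without Sham 1-RNA and -0.11 with library totals as scale. Only 1 of these S100 genes fell without Sham 1, Sham 3, inj 2 or inj 3, and 3 fell without Sham 1-RNA.

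Secreted matrix and synapse genes rose in 6 of 15 and fell in 0, with a median of 0.64. Sparc, a matrix glycoprotein gene, rose by 1.65 ± 0.17 (edgeR adjusted p = 9.79e-05), Vcan, the proteoglycan versican, by 1.68 ± 0.22 (0.000312) and Ptprz1, a receptor phosphatase of glia, by 0.97 ± 0.13 (0.000356). Lipid and lactate genes rose in 4 of 12 and fell in 4, with a median of 0.18. Cpt1a, of fatty acid oxidation, rose by 1.10 ± 0.17 (edgeR adjusted p = 0.000829), Slc16a1, a lactate transporter, by 1 ± 0.23 (0.00835) and Apoe, the lipid carrier, by 0.81 ± 0.22 (0.0189). Fabp7, a fatty acid binding protein of glia, fell by 1.22 ± 0.31 (edgeR adjusted p = 0.0118) and Scd2, a desaturase, by 1.17 ± 0.33 (0.0201). Without Sham 3 or inj 2 only 2 lipid genes rose, and 1 fell without Sham 1, Sham 3, inj 3 or inj 4 and 2 without inj 2. Among the genes named from these lists, the calls of Scd2, Apoe and S100a1 each ended when any of 4 or more single libraries was left out, those of Acsbg1 and Synm for 2 libraries each, and those of Gpr37l1 and Nfib without inj 2.

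Markers of other cell types moved in the same comparison. All 10 tested endothelial markers rose (median 2.92), with a summed level of 263 to 326 CPM in Sham and 1940 to 2410 CPM in inj. All 12 pericyte and smooth muscle markers rose (median 2.61, 280 to 384 CPM in Sham and 1530 to 1710 CPM in inj). Among microglia and macrophage markers 11 of 12 rose (median 2.44, 678 to 871 CPM in Sham and 3500 to 3690 CPM in inj). These gains held in number when any single library was left out. Of 12 oligodendrocyte markers 1 rose and 4 fell, and their sum was 71200 to 209000 CPM in Sham and 61500 to 77600 CPM in inj, where 7 fell without Sham 1-RNA, 2 without inj 2 or inj 4 and 1 without Sham 1, Sham 3 or inj 3. Inhibitory neuron markers fell in 6 of 8 (median -1.05), and pan-neuronal markers rose in 1 and fell in 3 of 12, with sums of 4860 to 5150 CPM in Sham and 3130 to 4980 CPM in inj. Of 8 excitatory neuron markers 1 rose and 0 fell (median 0.02), with sums of 3410 to 3940 CPM in Sham and 3920 to 5100 CPM in inj. None of these listed markers was at 0 at day 7. The part of vessel cells and microglia in the rise of Vim, the connexins and the reactive lists, and of oligodendrocytes in the fall of S100b, was not tested.

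**Figure D3:**
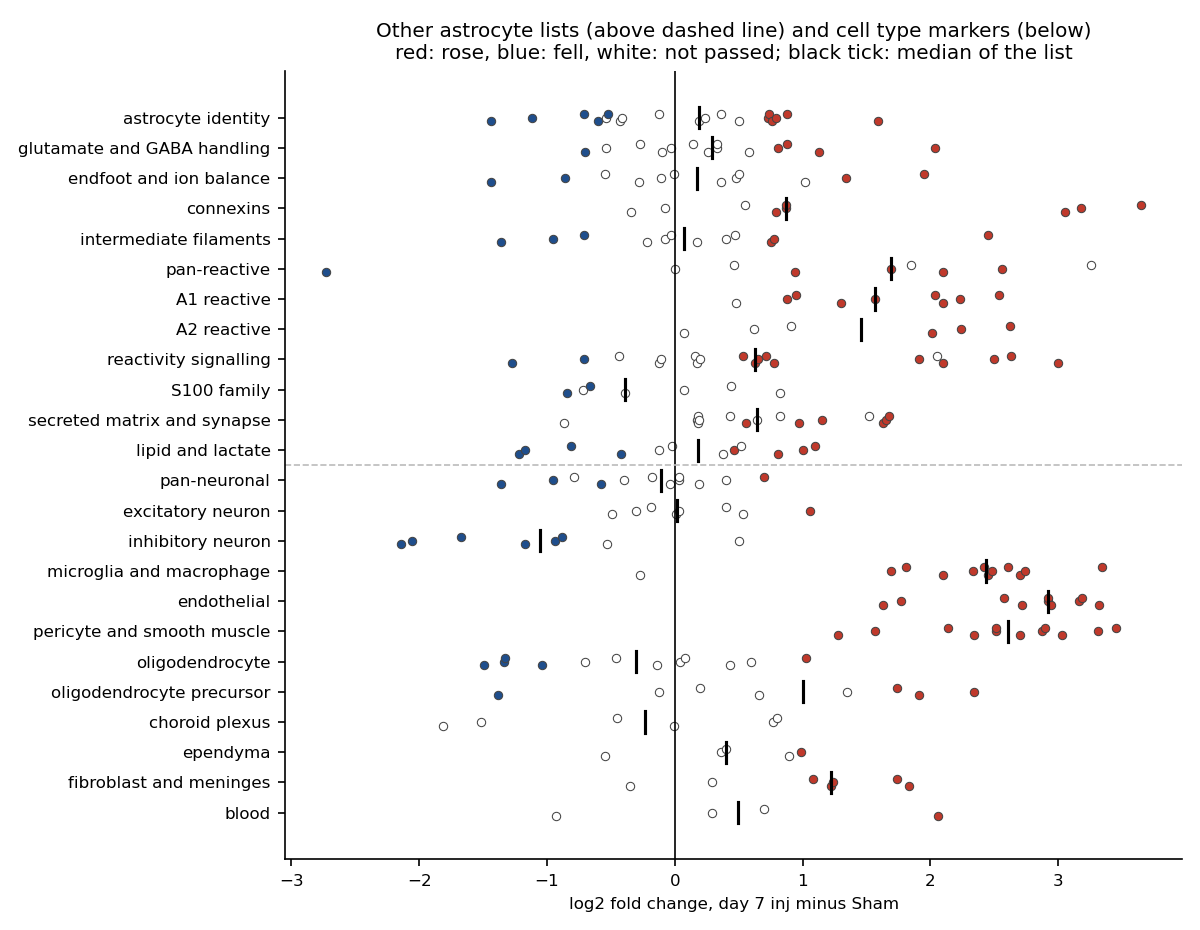
Log2 fold change of each tested gene at day 7, inj minus Sham, by list. Each point is a gene, red where it rose, blue where it fell and white where it did not pass, and the black tick is the list's median. The endothelial, pericyte and microglia markers have medians of 2.92, 2.61 and 2.44, the A1 list 1.57 and the astrocyte identity list 0.19.

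At day 30 the In and S libraries of males were compared, and 0 of the 8 members with counts passed. The comparison called 0% of 15074 genes in edgeR, while 1232 genes had an unadjusted p under 0.05 and DESeq2 called 2 genes. The log2 fold changes were above 0 for 6 of 8 members, with a median of 0.34 against 0.02 over all genes, which was 0.18 without male In 1 and 0.61 without male S 4. Groups did not overlap for 1 member, Gja1, against 11.5% of all genes.

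Gja1 stood at 128, 96.2 and 96 CPM in male In 1, 2 and 3 and at 45.6, 43.5 and 77.6 CPM in male S 1, 2 and 4. The 3 In libraries were above the 3 S libraries, with means of 107 ± 18.6 and 55.6 ± 19.1 CPM (SD, n = 3). The log2 difference was 0.94 ± 0.42 (95% interval 0.03 to 1.86), with an unadjusted p of 0.0443 and an adjusted p of 0.608 in edgeR. S100b stood at 2240, 1850 and 2200 CPM in male In and at 1390, 1170 and 1860 CPM in male S, in the same library order. Only male S 4 reached the In range, and the log2 difference was 0.51 ± 0.26 (95% interval -0.05 to 1.07, edgeR adjusted p = 0.622).

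Gfap stood at 825, 677 and 593 CPM in male In 1, 2 and 3 and at 691, 667 and 749 CPM in male S 1, 2 and 4. The S libraries lay inside the In range, and the log2 difference was -0.01 ± 0.23 (95% interval -0.51 to 0.49, edgeR adjusted p = 0.993). Vim stood at 348, 200 and 213 CPM in male In and 192, 241 and 179 CPM in male S. The high value was male In 1 alone, and the log2 difference was 0.31 ± 0.23 (edgeR adjusted p = 0.696). Without male In 1, which is also the library with the lowest Mbp share, the Vim difference was 0.02 ± 0.19 (edgeR adjusted p = 0.996).

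Slc1a2 varied widely between male libraries and Slc1a3 less so. Slc1a2 stood at 17.8, 52.3 and 69.5 CPM in male In 1, 2 and 3 and at 38, 66 and 111 CPM in male S 1, 2 and 4. Its highest In library was 3.91 times its lowest, and the log2 difference of -0.62 ± 0.64 had a 95% interval from -2.04 to 0.81 (edgeR adjusted p = 0.787). It was -0.23 without male In 1, -0.15 without male S 4 and -1.02 without male In 3. Slc1a3 was even across male In, at 212, 217 and 229 CPM, and uneven across male S, at 132, 135 and 244 CPM, with a log2 difference of 0.36 ± 0.43 (edgeR adjusted p = 0.81). Male In 1 therefore had a log2 ratio of Slc1a2 to Slc1a3 counts of -3.57, the lowest of the 18 libraries. Aqp4 stood at 168, 139 and 126 CPM in male In and 93.7, 106 and 170 CPM in male S (0.23 ± 0.39, edgeR adjusted p = 0.873). Aldh1l1 stood at 13, 7.71 and 12.4 CPM in male In and 6.91, 6.73 and 11.8 CPM in male S (0.38 ± 0.38, edgeR adjusted p = 0.775). The groups overlapped for these genes.

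In females, 0 of the 8 members passed for In against S, where 0.0332% of genes were called, and 2 members were above 0, with a median log2 difference of -0.17 against 0 over all genes. Without female S 3 the number above 0 was 5 and the median 0.09, and without female In 2 they were 4 and 0.05, while the median was -0.48 without female S 1 and -0.51 without female In 3. Groups overlapped for all 8 members, while they did not for 8.02% of genes. Every member had an edgeR adjusted p of 1. Gfap stood at 419, 201 and 257 CPM in female In 1, 2 and 3 and at 228, 341 and 298 CPM in female S 1, 2 and 3. The highest and the lowest of these 6 libraries were both In, and the log2 difference was 0.02 ± 0.23 (95% interval -0.48 to 0.51). Vim stood at 260, 176 and 202 CPM in female In and 262, 183 and 185 CPM in female S (0.02 ± 0.23).

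Female In 3 and female S 3 were high, and female S 1 low, in several astrocyte genes at once. Gja1 stood at 73.8, 75.9 and 161 CPM in female In 1, 2 and 3 and at 55.6, 93.1 and 177 CPM in female S 1, 2 and 3. Slc1a3 stood at 154, 140 and 351 CPM in female In and 135, 206 and 419 CPM in female S. Aqp4 stood at 71.7, 66.1 and 148 CPM in female In and 55.1, 93.4 and 160 CPM in female S. In each of these genes the library numbered 3 stood highest in its group. Their log2 differences of -0.07 ± 0.41, -0.24 ± 0.43 and -0.11 ± 0.39 were smaller than their errors.

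Slc1a2 stood at 32.9, 34.9 and 83.4 CPM in female In and 26.3, 82.7 and 99.4 CPM in female S (-0.46 ± 0.63). Aldh1l1 stood at 10.6, 6.73 and 12.2 CPM in female In and 5.83, 11.9 and 18.4 CPM in female S (-0.29 ± 0.37). S100b stood at 1020, 732 and 1160 CPM in female In and 703, 1320 and 1530 CPM in female S (-0.29 ± 0.26). In all 3 genes female S 1 was the lowest of its group. Choroid plexus markers differed between these groups, with sums of 31.5 to 259 CPM in female In and 2.87 to 4.41 CPM in female S and with Ttr at 0 in every library. Their part in the astrocyte values was not tested.

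**Figure D4:**
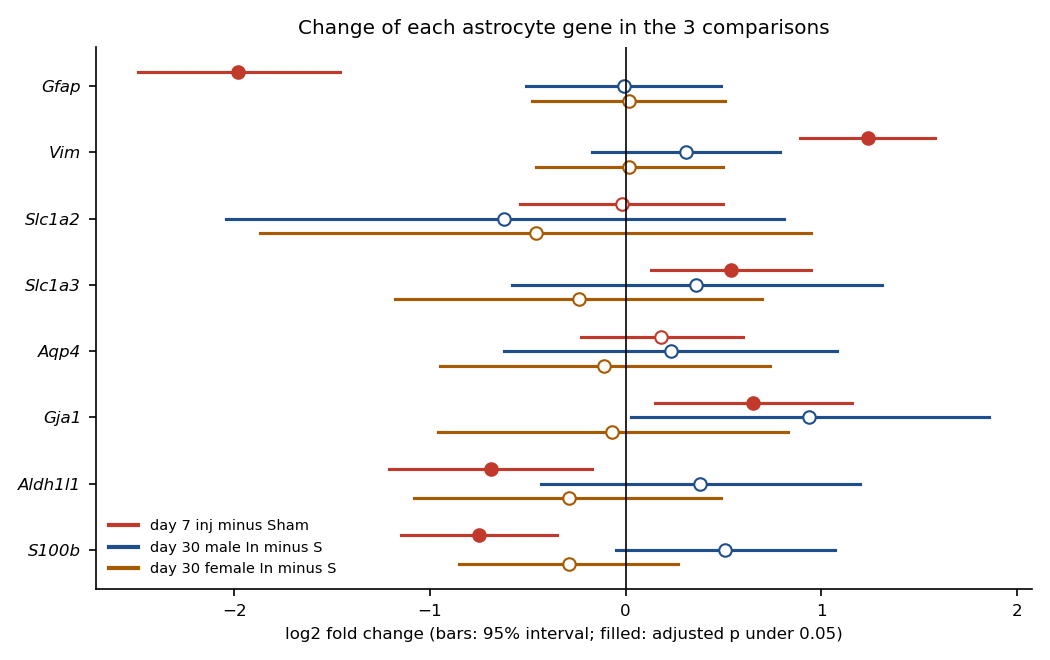
Log2 fold change of each of 8 astrocyte genes at day 7 (inj minus Sham) and at day 30 (In minus S in males and in females), with 95% intervals. Filled circles passed an adjusted p of 0.05 in edgeR. At day 7 Gfap is at -1.98 and Vim at 1.24, and all day 30 circles are open.

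Averaged over the sexes, 0 of 8 members passed, 0% of genes were called in edgeR, 650 genes had an unadjusted p under 0.05, and DESeq2 called 18. The members' median was 0.06 against 0.01 over all genes. Gja1 had the mean difference farthest above 0 (0.44 ± 0.29, edgeR adjusted p = 0.977) and Slc1a2 the one farthest below it (-0.54 ± 0.45, 0.977). The difference of the In effect between females and males was tested next. It passed for 0 of 8 members and 0% of genes in edgeR, with 619 genes at an unadjusted p under 0.05 and 6 genes called by DESeq2. S100b had a difference of effects of -0.80 ± 0.37 (95% interval -1.59 to -0.01, unadjusted p = 0.0482, edgeR adjusted p = 0.94) and Gja1 of -1.01 ± 0.59 (95% interval -2.29 to 0.27, edgeR adjusted p = 0.94). The members' median difference of effects was -0.47, against -0.01 over all genes.

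The lists of other astrocyte genes had 0 passing genes in males and in females at day 30. Of 20 astrocyte identity genes 18 lay above 0 in males (median 0.40, and 0.27 without male In 1) and 1 in females (median -0.24). Genes of a list can follow the same few libraries, as several members did. Such numbers, here and for the markers below, are therefore not separate observations. The members' own female median ran from -0.51 without female In 3 to 0.09 without female S 3. The male genes with the smallest p were Ntsr2, a neurotensin receptor gene of astrocytes (0.75 ± 0.36, edgeR adjusted p = 0.621), and Mfge8 (0.43 ± 0.22, 0.622). In females they were Aldoc, the astrocyte aldolase gene (-0.37 ± 0.29, edgeR adjusted p = 1), and Cbs, of cysteine synthesis (-0.34 ± 0.31, 1). None of them passed. The median of the other S100 genes was 0.61 in males, 0.31 without male In 1, and 0.17 in females, and that of the A1 list was 0.10 and 0.09. Oligodendrocyte markers lay below 0 in all 12 in males (median -0.31), but their median was 0.07 without male In 1, and microglia markers lay above 0 in 12 of 12 in males (median 0.36, and 0.22 without male In 1) and in 0 of 12 in females (-0.12).

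Females and males were compared within S and within In. Gfap was lower in females in both conditions and S100b in In. Gfap had means of 289 ± 56.8 CPM in female S and 702 ± 42.5 CPM in male S, and of 292 ± 114 and 698 ± 117 CPM in female and male In (SD, n = 3). All female libraries were below all male libraries. The log2 difference, female minus male, was -1.28 ± 0.24 in S (95% interval -1.79 to -0.77, edgeR adjusted p = 0.0117) and -1.26 ± 0.24 in In (-1.76 to -0.75, 0.00447). S100b had means of 970 ± 218 CPM in female In and 2100 ± 214 CPM in male In, with no overlap, and a log2 difference of -1.11 ± 0.27 (95% interval -1.68 to -0.54, edgeR adjusted p = 0.0143). In S its means were 1190 ± 432 and 1470 ± 355 CPM (-0.31 ± 0.26, edgeR adjusted p = 0.575). Gja1 had means of 108 ± 62.1 CPM in female S and 55.6 ± 19.1 CPM in male S (0.97 ± 0.42, edgeR adjusted p = 0.238).

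So 1 of 8 members passed in S, where 2.97% of genes were called, and 2 of 8 in In, where 12.7% were. Groups did not overlap for 1 member in S and 2 in In, against 27.1% and 33.1% of genes. Scaling bears on these values, because mitochondrial genes took more of every male library. Sex and this share cannot be told apart. Scaled by library totals, all genes had a median of 0.88 in S and 0.94 in In. Gfap then had a log2 difference of -0.42 in S (edgeR adjusted p = 0.1) and -0.39 in In (0.126), and S100b in In of -0.19 (0.522), all below the shifted median. That scale called 8998 of 15074 genes in S, 8964 of them higher in females, so a call there is not read as a result about a member. On it Vim was at the common shift in S (0.91), and Aldh1l1 (1.36), Slc1a3 (1.43) and Gja1 (1.82) were above it.

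Leaving the mitochondrial genes out of the totals, an alternative added after the data were seen, gave Gfap differences of -1.09 in S (edgeR adjusted p = 0.0133) and -1.07 in In (0.00676), and an S100b difference in In of -0.90 (0.024). The Gfap call in S also ended without female S 1 (edgeR adjusted p = 0.0934) or male S 4 (0.064), within a range of 2.51e-05 to 0.136. The S100b call in In ended without female In 2 (edgeR adjusted p = 0.0877), within a range of 0.000629 to 0.522. Ratios within a library do not depend on the scale. The log2 ratio of Gfap to Aldh1l1 counts was 5.98 to 6.64 in male S and 4.02 to 5.29 in female S, and 5.58 to 6.45 in male In and 4.4 to 5.3 in female In. Vim to Gfap was -2.06 to -1.47 in male S and -0.89 to 0.20 in female S, and -1.76 to -1.24 in male In and -0.69 to -0.19 in female In. Neither ratio overlapped between the sexes. Gfap to Aqp4 was 2.14 to 2.88 in male S and 0.90 to 2.05 in female S, but in In the female range of 0.79 to 2.55 contained the male range of 2.23 to 2.30.

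The male effect at day 30 was then set against that at day 7, over genes in both tables and within each table's own controls. It differed for Gfap, by 2.02 ± 0.28 on the log2 scale (day 30 minus day 7, 95% interval 1.41 to 2.63, edgeR adjusted p = 0.000359), and for S100b, by 1.32 ± 0.26 (0.75 to 1.88, 0.00478). Both directions and calls were kept in all 19 alternatives run, with ranges of 1.67 to 2.15 and 0.98 to 1.41. These 2 of 8 members stand beside 13% of genes called. Vim had a difference of -0.87 ± 0.29 (95% interval -1.50 to -0.25, edgeR adjusted p = 0.0641) that passed in 7 of 19 alternatives, among them the fit without male In 1 (-1.17, edgeR adjusted p = 0.00284). Aldh1l1 had 1.13 ± 0.40 (95% interval 0.27 to 1.99, edgeR adjusted p = 0.0808). Differences of effects for Slc1a2 (-0.54 ± 0.61), Slc1a3 (-0.12 ± 0.32), Aqp4 (0.11 ± 0.32) and Gja1 (0.35 ± 0.36) did not pass. Days differ in their tables, their depth in the controls and the names of their groups, so the day cannot be told apart from these.

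Serpina3n was listed at 0 counts in all 12 day 30 libraries and was not among the genes of the day 7 table. Its relatives Serpina3c, Serpina3m and Spin2a were also listed at 0 in all 12. A count of 0 allows up to 3 counts per library, or 0.114 to 0.288 CPM, if reads of the gene could be counted at all. Npy, the neuropeptide Y gene, had 8.19 ± 2.56 CPM in Sham and 1.94 ± 0.125 CPM in inj (SD, n = 3) at day 7 and was likewise listed at 0 in all day 30 libraries. A listing at 0 in that table is therefore not read here as a level.

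Within the day 30 groups, libraries that were high in 1 astrocyte gene tended to be high in some others but not in Vim. Deviations of log2 CPM from the group means over 12 libraries gave a Pearson r of 0.83 to 0.99 in the 10 pairs among Slc1a3, Aqp4, Gja1, Aldh1l1 and S100b, and of 0.57 to 0.76 between Slc1a2 and these 5 genes. The 7 pairs with Gfap had r from -0.02 to 0.56 and the 7 pairs with Vim from -0.70 to 0.35. The lowest was Vim with Slc1a2 (r = -0.70, Spearman rho = -0.54). Without male In 1, r was 0.76 to 0.84 between Slc1a2 and the 5 genes and -0.59 between Vim and Slc1a2. These are descriptions over libraries that share scaling and depth, with no test.

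**Figure D5:**
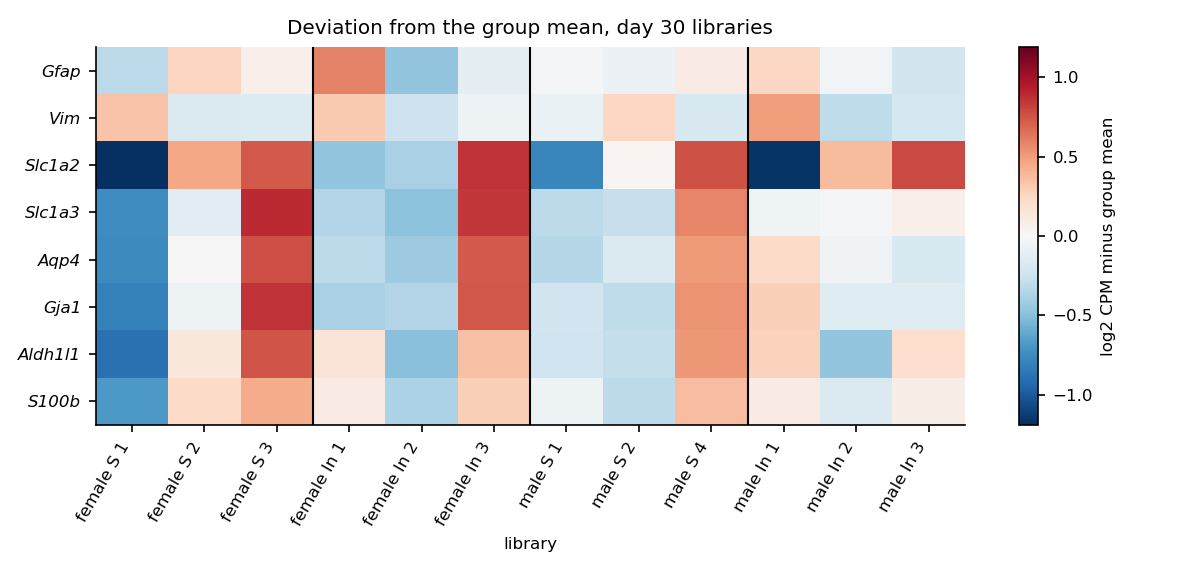
Deviation of log2 CPM from the group mean for 8 astrocyte genes in 12 day 30 libraries, with vertical lines between groups. Red is above and blue below the mean. Slc1a3, Aqp4, Gja1, Aldh1l1 and S100b share their pattern (r of 0.83 to 0.99 over 10 pairs), highest in the female S 3, female In 3 and male S 4 columns, whereas Vim does not (r of -0.70 to 0.35 with the other members).

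Among 7710 genes with a mean of at least 10 CPM, the pattern most like that of Aqp4 was that of Plpp3, a lipid phosphatase gene (r = 0.99, rho = 0.99), followed by Gja1 (0.99, 0.95) and the neurotrophin receptor gene Ntrk2 (0.98, 0.97). Gja1 was most like Aqp4 (r = 0.99, rho = 0.95), Plpp3 (0.98, 0.92) and the GABA receptor gene Gabrg1 (0.98, 0.92). Slc1a3 was most like Slc15a2, a peptide transporter gene (r = 0.99, rho = 0.96), Slc4a4 (0.98, 0.97) and Pgm1 (0.97, 0.94), and Aldh1l1 most like Ntsr2 (r = 0.97, rho = 0.95), Fam181b (0.97, 0.97) and Scp2 (0.97, 0.96). Slc1a2 was most like Sardh (r = 0.97, rho = 0.95), Abat, which encodes GABA transaminase (0.97, 0.89), and Abcd2 (0.96, 0.97). Vim stood apart, being most like Ecm1, an extracellular matrix gene (r = 0.97, rho = 0.92), Acta2, the smooth muscle actin gene (0.96, 0.69), and Vps25 (0.96, 0.96). Gfap was like Msrb2 (r = 0.92, rho = 0.92) and the transcription factor gene Klf4 (0.91, 0.91), and S100b most like the peroxiredoxin gene Prdx6 (r = 0.97, rho = 0.99), Cd24 (0.97, 0.99) and Gramd3 (0.96, 0.94). Without male In 1 the values of r of these named genes were 0.91 to 0.99.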

How the data were processed

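Counts per gene were read for 18 libraries of rat motor cortex, in 1 table per day. The authors deposited whole-number read counts by gene symbol, not normalized. The submitters' processing notes name HISAT2, the build rn6 and edgeR, with no version in the sources used here. Per the labels, polyA RNA was sequenced after column extraction. The day 7 table lists fewer genes than the day 30 table and none of the mitochondrial genome, and 12397 of its 12560 genes are also in the day 30 table. No source used here says how its genes were chosen. Summary lines and unnamed lines were dropped.

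Libraries were grouped by their labels, and every column matched a sample. Tests used edgeR 4.0.16 in R 4.3.3, with TMM factors, genes kept by filterByExpr, and the robust quasi-likelihood F test. P-values were adjusted over all genes tested by the Benjamini-Hochberg method, and 0.05 was the threshold. There was 1 fit of the 6 libraries of day 7, 1 of the 12 of day 30 and, to set the male effects of the days against each other, 1 of all male libraries over shared genes. CPM come from the same scaling, and ratios used counts plus 0.5. Alternatives were DESeq2 1.42.0, limma-voom (limma 3.58.1), RLE size factors, library totals, 2 other filters on low counts, each library left out, a replicate block, a fit of only the groups compared, a sum of Sham 1 with Sham 1-RNA, thinned inj counts, and scales without mitochondrial genes. Sham 1 and Sham 1-RNA differed by more than sampling noise, with a chi-square per gene of 31.8, and were kept apart. Within Sham, Sham 1 and Sham 3 were much the closest pair (3.27), and Sham 3 with Sham 1-RNA had 28.8. Pairs within the other groups had 11.8 to 85.3. This measure grows with depth, which was lowest in Sham, so groups are not compared by it. Mbp took 14.5 and 13.6% of counts in Sham 1 and Sham 3 and 5.81% in Sham 1-RNA. The 3 Sham libraries were thus unevenly alike. The test was checked on simulated data. Figures used Python 3.11.15 and matplotlib 3.10.9.

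The members and the gene lists were chosen with earlier results of these data known. Named are all members and, per list and comparison, up to 3 genes that rose and 3 that fell with the smallest adjusted p, or up to 2 with the smallest p where none passed. The 3 genes most like each member had the highest Pearson r of deviations from group means among genes of at least 10 CPM. Some genes that these rules name are not reported here. The ratio of S100b to Gfap, the TATA box, and values of lists and of the members together with single libraries left out in the comparisons of days and sexes were added after the data were seen. The planned ratio of Serpina3n to Gfap could not be formed.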

Additional observations from a re-analysis of the deposited data

Results flagged for a closer look

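The male effect differed between day 30 and day 7 for 2 astrocyte genes, by a test of the difference itself. For Gfap the difference, day 30 minus day 7, was 2.02 ± 0.28 on the log2 scale (edgeR adjusted p = 0.000359), between a male effect of -0.01 at day 30 and -1.98 at day 7. For S100b it was 1.32 ± 0.26 (edgeR adjusted p = 0.00478), between 0.51 at day 30 and -0.75 at day 7. The part of the shorter day 7 table and of the lower Sham depth in these differences was not tested.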

How the results depend on the processing

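Over 8 members and all comparisons, 1176 of the member values under an alternative kept direction and call, 30 lost the call, 12 gained it, 109 changed sign with neither value called, and 1 reversed: female against male In, where Vim was -0.25 with TMM and 0.64 with library totals as scale. That scale moved the median of all genes from 0.03 to 0.94, so Vim lay below the median under both. Numbers of genes called in the whole table moved more. DESeq2 called 2 genes for male In against S, 33 for female In against S (5 in edgeR), 18 for the mean of the sexes, 6 for the difference of effects and 1038 for female against male S (447 in edgeR). limma-voom called 0 for female In against S, 953 for female against male S and 2627 for the male effect between days (1518 in edgeR). Library totals as scale called 8998 and 8969 genes for female against male S and In (447 and 1913 with TMM), and totals without mitochondrial genes 876 for S. Without a filter 10 genes passed for female In against S, and 0 with the compared groups alone. Leaving out male In 1 and male S 2 together gave 1 gene for male In against S and 981 for female against male S.

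Leaving out each library in turn gave 2926 to 4639 genes at day 7, 0 to 1 for male In against S and for the mean of the sexes, 0 to 24 for female In against S, 66 to 1270 and 578 to 1908 for female against male S and In, and 1004 to 2028 for the male effect between days.

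A replicate block joined day 30 libraries by number. Deviations of same-numbered libraries correlated with r from 0 to 0.13, and those of differently numbered libraries with r from -0.16 to 0.11. Not every library correlated best with its own number. With 3 libraries per group these values cannot say whether the numbers pair the samples. With the replicate block 10 genes passed for female In against S, 21 for female against male S and 1806 for In. The Gfap value in S was then -1.16 (edgeR adjusted p = 0.136). At day 7 no paired analysis was possible because the groups share 1 number only.

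Depth limits low genes in Sham most, where 3 counts are over 1 CPM. At day 30 the 95% interval of Slc1a2 in males ran from -2.04 to 0.81, so these libraries leave its change undetermined within that range, which includes no change.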

Other observations

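Lists of other astrocyte genes were also read in the test of the male effect at day 30 against that at day 7, where 13% of genes were called and the median of all genes was 0.07. Of the 12 lists, 4 are described in detail. Glutamate and GABA handling (2 of 14), secreted matrix and synapse genes (2 of 15) and pan-reactive genes (1 of 9) lay near that share. The rest lay above it. Of 12 intermediate filament genes 1 had a higher and 3 a lower effect at day 30. Of 12 endfoot genes 1 was higher and 2 lower, and of 12 lipid genes 2 higher and 1 lower. Lower effects were also called for 2 of 9 connexins and 2 of 7 A2 genes, with 0 higher in both lists. In the S100 family 3 of 8 tested genes had a higher effect at day 30 and 0 a lower one, with a median of 0.72. S100a1 had a difference of effects of 1.47 ± 0.32 (edgeR adjusted p = 0.00703), and S100a13 one of 1.5 ± 0.37 (0.0154) that did not pass without Sham 1 (0.0701). S100a16 (1.02 ± 0.30, edgeR adjusted p = 0.0395) lost its call when any of 9 single libraries was left out. The S100 count was 1 without Sham 1 and with library totals as scale. Among astrocyte identity genes 6 of 19 had a higher and 1 a lower effect, with a median of 0.44, but the 6 became 2 when any of 9 single libraries was left out. The bicarbonate cotransporter gene Slc4a4 had a difference of effects of 1.88 ± 0.36 (edgeR adjusted p = 0.00349) and the glycogen regulator gene Ppp1r3c one of 1.36 ± 0.27 (0.00472), and both passed whichever library was left out. Mfge8 had -1.11 ± 0.29 (edgeR adjusted p = 0.0214, and 0.0561 without inj 2).

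In the A1 list 4 of 9 had a lower effect at day 30 and 0 a higher one, with a median of -1.25, among them C3 (-2.10 ± 0.42, edgeR adjusted p = 0.00476) and Srgn (-1.95 ± 0.23, 0.00011). In reactivity signalling 4 of 19 had a lower and 0 a higher effect, with a median of -0.55, among them the receptor genes Tgfbr2 (-3.08 ± 0.40, edgeR adjusted p = 0.000201) and Il6st (-1.83 ± 0.21, 0.0001). Vessel and microglia markers moved in the same direction in this test: 9 of 10 endothelial (median -2.85), 10 of 12 pericyte and smooth muscle (-2.29) and 9 of 12 microglia and macrophage markers (median -2) had a lower effect. Inhibitory neuron markers went the other way, with 4 of 8 higher and 0 lower (median 1.48). Of the oligodendrocyte and the pan-neuronal markers 0 were called. The part of other cell types in the A1 and signalling values was not tested.

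In the female In against male In comparison, with TMM, 12.7% of genes were called. Of 9 other S100 genes 5 fell and 0 rose (median -1.07 against 0.03 over all genes), among them S100a13 (-1.25 ± 0.30, edgeR adjusted p = 0.0168), S100a16 (-1.07 ± 0.24, 0.0112) and S100a1 (-1.05 ± 0.24, 0.0105). The count was 0 without female In 2 and with library totals as scale, where the median was -0.93 and -0.17, and 2 without female In 3. In reactivity signalling 7 of 19 rose and 2 fell (median 0.47), among them Tgfbr1 (1.39 ± 0.23, edgeR adjusted p = 0.00261) and Tgfbr2 (1.18 ± 0.14, 0.000494). Without female In 2, female In 3 or male In 2 the number that rose was 3, and without male In 3 it was 4. Endothelial markers rose in 5 of 10 (median 0.51), pericyte and smooth muscle markers in 4 of 11 (0.65) and choroid plexus markers in 6 of 7 (6.12). The mitochondrial share differs between the sexes as well, and the part of these in the list values was not tested.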
